A study of Mus musculus with 35 samples.

Results

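A set of 10 genes that mark the cells of brain blood vessels and their barrier was followed across the striatum of 35 mice. The genes were taken by name from the deposited table as the rows Cldn5, Pecam1, Flt1, Tek, Kdr, Cdh5, Tie1, Esam, Slc2a1 and Slco1a4, which are 10 of its 22099 rows, and all 10 had enough counts to be tested. The row Esam held few counts, and most counts of that gene stood under its older symbol, Esam1. That row is therefore given beside it and is not counted among the 10.

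Capillaries of the brain are lined by endothelial cells that are sealed to each other by tight junctions and that carry nutrients inwards and drugs and waste outwards through transporters. Their growth and stability depend on receptor kinases at the cell surface, with Kdr and Flt1 binding VEGF and Tek binding the angiopoietins, while Tie1 is the partner of Tek that binds no angiopoietin well by itself. Together with pericytes and astrocyte endfeet these cells form the blood-brain barrier, which large charged molecules such as antisense oligonucleotides (ASOs) cross poorly.

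The mice were females on the C57BL/6J background, 299 to 304 days old. They were either Htt Q111/+, knock-in heterozygotes that carry an expanded CAG tract in 1 copy of the mouse huntingtin gene, or littermates with the genotype Htt +/+. Weekly intraperitoneal injections, begun at 2 months and ended at 10 months, gave each mouse saline (4 µL/g), a control ASO (50 mg/kg) or an ASO against mouse Htt (Htt ASO, 50 mg/kg). The Htt +/+ groups held 6 saline mice, 5 control ASO mice and 6 Htt ASO mice, and each Htt Q111/+ group held 6. RNA came from whole hemistriatum, after perfusion of the animal with saline, so neurons, glia and vessels were measured in 1 mixture, and each mouse gave 1 library. All samples were of the right side except that of 1 Htt +/+ mouse on Htt ASO. Levels are given as CPM, the counts of a gene scaled to a common library size with TMM factors, and comparisons as log2 fold changes fitted by limma after voom. A gene is called changed where its p-value, adjusted over 17639 tested genes, was under 0.05.

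Depth was even, with 32200158 to 38641924 counts a mouse. The transcript that Htt ASO targets, listed under the older symbol Hdh, had 85.3 ± 13.01 CPM (SD, n = 6) in Htt +/+ mice on Htt ASO against 89.7 ± 8.78 CPM (n = 5) on control ASO. In Htt Q111/+ mice it had 71.6 ± 8.35 CPM against 75.2 ± 7.74 CPM (n = 6 each), and over both genotypes its log2 fold change between the 2 ASOs was −0.08 (SE 0.07, adjusted p = 0.967). One library stood apart before any comparison, that of Htt +/+ control ASO mouse 2. It had the highest CPM of all 35 mice for 7 of the 10 members, Cldn5, Pecam1, Flt1, Tek, Kdr, Cdh5 and Slco1a4, among them 118 CPM of Flt1, where the other 34 mice reached at most 90.6 CPM. It also had the highest summed level of 3 red-cell transcripts (Hba-a2, Hbb-b1 and Alas2), 426 CPM against 18.6 to 261 CPM elsewhere, and of 10 pericyte and smooth muscle transcripts, 274 CPM against 193 to 261 CPM. The members' results that rest on this mouse are given with and without it. Since a sample of tissue was sequenced, fewer endothelial cells and less RNA per endothelial cell cannot be told apart.

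**Figure D1:**
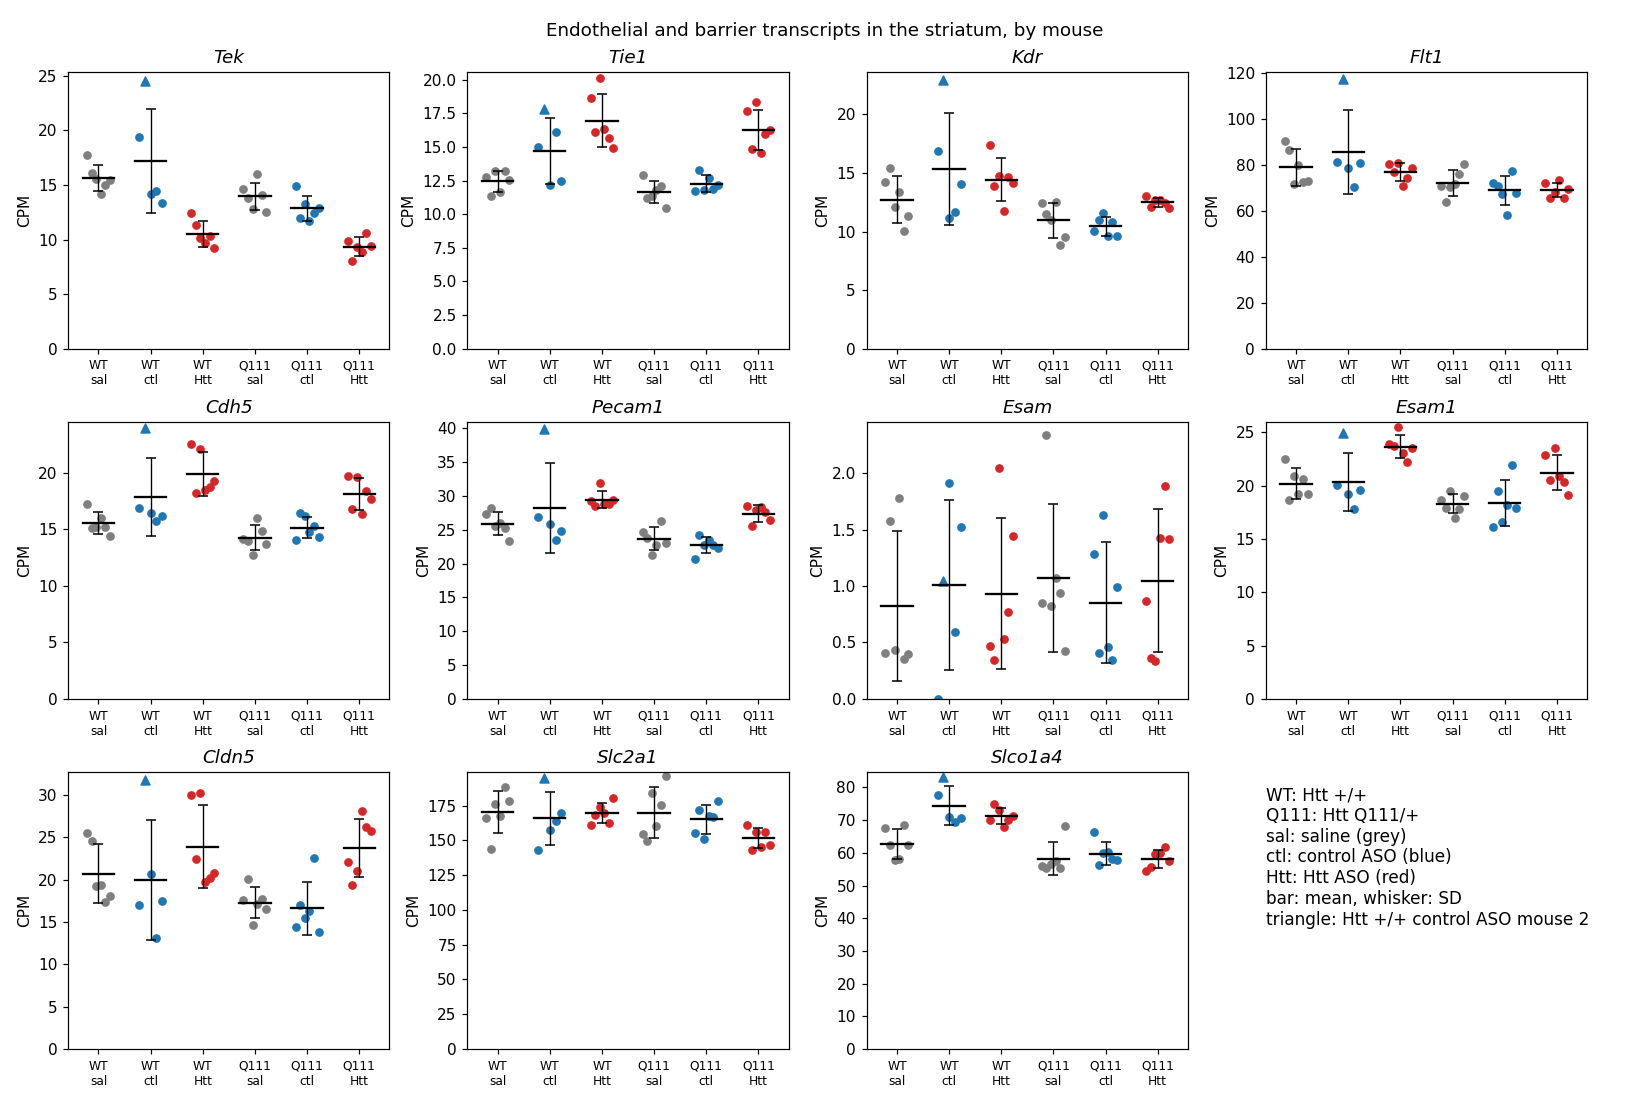
Level of each of the 10 genes, and of the row Esam1, in CPM on the vertical axis for every mouse (points) in the 6 groups, with the mean (bar) and SD (whisker). Tek is lowest in the groups on Htt ASO (7.996 to 12.5 CPM), where Tie1 is highest (14.5 to 20.1 CPM), and the triangle marks Htt +/+ control ASO mouse 2, the highest of all mice for 7 of the genes.

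Promoters were taken for the members on which the comparisons turn, since Tek and Tie1 differed in opposite directions with treatment and Slco1a4 had the smallest adjusted p for genotype. They run from 250 bases before to 50 bases after the start of the gene in RefSeq on GRCm38.p6, 5′ to 3′. GENCODE, used for the gene positions below, has the same start for Tek but not for Tie1 and Slco1a4. Its start of Tie1 is 118490061, inside the window, so most of that window lies within the GENCODE gene. Its start of Slco1a4, 141856199, also lies inside the window, near the 3′ end. Capitals mark AGGAAG or CGGAAG on either strand, which hold GGAA, the core bound by ETS factors, a family that acts in endothelial genes. Other copies of GGAA were neither marked nor counted, and each window printed holds some. The Tie1 window is chr4:118489800-118490099 on the minus strand, that of Tek is chr4:94739039-94739338 on the plus strand and that of Slco1a4 is chr6:141856171-141856470 on the minus strand.
Tie1: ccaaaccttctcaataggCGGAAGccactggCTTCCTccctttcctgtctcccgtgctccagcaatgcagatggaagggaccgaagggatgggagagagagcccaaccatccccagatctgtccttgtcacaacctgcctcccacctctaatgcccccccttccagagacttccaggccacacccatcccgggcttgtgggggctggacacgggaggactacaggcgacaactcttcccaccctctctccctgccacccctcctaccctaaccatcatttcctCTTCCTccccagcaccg
Tek: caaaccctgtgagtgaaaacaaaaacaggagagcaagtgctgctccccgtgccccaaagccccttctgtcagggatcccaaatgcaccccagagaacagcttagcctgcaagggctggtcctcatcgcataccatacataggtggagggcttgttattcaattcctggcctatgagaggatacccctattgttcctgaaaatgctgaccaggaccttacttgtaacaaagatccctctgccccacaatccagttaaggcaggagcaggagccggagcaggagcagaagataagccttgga
Slco1a4: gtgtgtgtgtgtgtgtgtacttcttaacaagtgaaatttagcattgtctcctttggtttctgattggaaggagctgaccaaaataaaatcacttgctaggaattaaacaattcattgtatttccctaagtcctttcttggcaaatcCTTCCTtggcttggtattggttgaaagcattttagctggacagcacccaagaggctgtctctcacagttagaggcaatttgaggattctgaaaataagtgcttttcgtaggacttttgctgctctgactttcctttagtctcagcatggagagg
Tie1 held 3 matches to the marked forms, Slco1a4 held 1 and Tek held 0. Of the 7 members with an entry in the table, 3 had a match, namely these 2 and Flt1, where 46.5% of 32851 promoters of the same length had one. Neither TTCNNNGAA nor GAAANNGAA, letters that STAT and interferon-regulated factors bind, was found on either strand in any of the 7 windows; 8.30% and 8.56% of all promoters hold them. Cdh5, Esam and Pecam1 had no entry. These matches are letters in a window, and binding was not measured.

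The levels of the 10 genes differed widely. Per kilobase of exon sequence, Slc2a1, which encodes the glucose transporter GLUT1 of the barrier, was highest at 47.2 ± 4.04 CPM per kb (SD, n = 35), and its lowest mouse, at 40.9, was above every mouse for every other member. Cldn5, the main claudin of brain endothelial tight junctions, followed at 14.4 ± 3.41 and Slco1a4, an organic anion transporter, at 9.94 ± 1.16 CPM per kb, with ranges that overlapped and an order that turned when the longest transcript was used as the length. Tie1 (2.86 ± 0.51) and Tek (2.79 ± 0.70 CPM per kb) overlapped over the 35 mice pooled. That spread includes the opposite differences with treatment given below, so Tie1 and Tek are not ranked against each other here. With the rows Esam and Esam1 added together (7.43 ± 0.84 CPM per kb), Kdr was lowest at 1.402 ± 0.30 CPM per kb. The row Esam was not ranked alone. The row Esam, for an adhesion molecule of endothelial junctions, had 0 to 87.8 expected counts a mouse (median 30.6), where Esam1 had 577 to 902.

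The question of genotype was whether the knock-in allele went with a different level of vascular transcripts. Averaged over treatments, 7 of the 10 members were lower in Htt Q111/+ than in Htt +/+ striatum: the receptors Kdr, Flt1, Tek and Tie1, the junction molecules Cdh5 (VE-cadherin) and Pecam1 (CD31), and the transporter Slco1a4. No member was higher. In the same comparison 39.8% of all tested genes were called, 18% of them all being called lower, and the median log2 fold change was −0.17 over the 10 members and 0.00 over all tested genes. Of all calls 54.7% were higher in Htt Q111/+ mice, and 72.1% on library totals without TMM scaling. Esam1 was lower as well.

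Among the receptors, the gap was widest for Kdr, the main signalling receptor for VEGF (VEGFR2, chr5:75932827-75978458, minus strand). The 17 Htt +/+ mice had 10.0 to 22.9 CPM of Kdr (median 14.1) and the 18 Htt Q111/+ mice 8.86 to 13.1 CPM (median 11.5). The groups overlapped, with 4 of the 18 below every Htt +/+ mouse, and Kdr fell by 0.30 on the log2 scale (SE 0.07, adjusted p = 0.00121 by limma), to 0.813 of the Htt +/+ level. For Flt1 (VEGFR1, chr5:147561604-147726011, minus strand), which binds VEGF more tightly and signals less, Htt +/+ mice had 70.7 to 118 CPM (median 78.6) and Htt Q111/+ mice 58.4 to 80.5 CPM (median 70.6). Here 9 of 18 mice lay below every Htt +/+ mouse, and the log2 fold change was −0.19 (SE 0.05, adjusted p = 0.00128). Tek (TIE2, chr4:94739289-94874976, plus strand) fell by 0.24 on the log2 scale (SE 0.06, adjusted p = 0.00254) and Tie1 (chr4:118471191-118490061, minus strand) by 0.13 (SE 0.05, adjusted p = 0.0229).

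Of the junction molecules, Pecam1 (chr11:106654217-106750628, minus strand) had 23.3 to 40.0 CPM in Htt +/+ mice (median 27.3) and 20.7 to 28.5 CPM in Htt Q111/+ mice (median 24.03). The groups overlapped, 7 of 18 lay below every Htt +/+ mouse, and the log2 fold change was −0.17 (SE 0.04, adjusted p = 0.00185). Cdh5 (chr8:104101625-104144511, plus strand) fell by 0.16 on the log2 scale (SE 0.05, adjusted p = 0.00555) and Esam1 by 0.15 (SE 0.04, adjusted p = 0.00354). Cldn5 (chr16:18776847-18778262, plus strand) varied most between mice of a group among the members other than Esam, with a within-group SD of 0.28 on the log2 scale. Its log2 fold change of −0.15 (95% confidence interval −0.33 to 0.03) did not pass the test (adjusted p = 0.177). The row Esam (chr9:37528078-37538319, plus strand) had 0.00 to 2.04 CPM in Htt +/+ and 0.34 to 2.34 CPM in Htt Q111/+ mice and did not pass it either (log2 fold change 0.45, SE 0.42, adjusted p = 0.428). With the counts of Esam and Esam1 added together, a step chosen after seeing the data, the gene fell by 0.13 on the log2 scale (SE 0.04, adjusted p = 0.00345).

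Slco1a4 (chr6:141805440-141856199, minus strand) was the most even of the members, with a within-group SD of 0.09 on the log2 scale, and had the smallest adjusted p. Htt +/+ mice had 57.7 to 83.2 CPM (median 69.9) and Htt Q111/+ mice 54.5 to 68.3 CPM (median 57.7). Of the 18, 10 lay below every Htt +/+ mouse and the log2 fold change was −0.24 (SE 0.03, adjusted p = 6.71e-08), with values of −0.37 to −0.11 within each of the 5 lanes, read from the number after the letter L in the sample names, that held both genotypes. Reads may be shared with its close relatives Slco1a5 and Slco1a6. The other barrier transporter, Slc2a1 (chr4:119108711-119137983, plus strand), had 143 to 195 CPM in Htt +/+ and 143 to 196 CPM in Htt Q111/+ mice and a log2 fold change of −0.06 (95% confidence interval −0.13 to 0.02, adjusted p = 0.255). No member had groups that did not overlap, where 2.21% of all tested genes did.

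Within lanes, Kdr, Flt1 and Pecam1 were also lower in Htt Q111/+ mice in 5 of 5 lanes, and Tek, Cdh5 and Tie1 in 4 of 5. Lane 7 held Htt Q111/+ mice only. Without Htt +/+ control ASO mouse 2, 6 members instead of 7 were called lower, where 38.6% of all tested genes were called. Tie1 was the one lost, with an adjusted p of 0.0507 and a log2 fold change of −0.11. The fold changes of the other 6 ranged from −0.25 for Kdr to −0.12 for Cdh5. On library totals without TMM scaling, which moved the median of all genes to 0.04, the log2 fold change of Tie1 was −0.09 (adjusted p = 0.0953).

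The genotype difference was read within each treatment too. On saline, 0 of 10 members were called, where 17.4% of all tested genes were. There, edgeR and DESeq2 also called 0, and 1 member had an unadjusted p under 0.05 by limma, Slco1a4 (log2 fold change −0.11, SE 0.05, adjusted p = 0.155). Without Htt +/+ control ASO mouse 2, which adds to the estimate of the spread, Pecam1 was called on saline (−0.13, adjusted p = 0.0482). Without Htt Q111/+ saline mouse 6, whose Slco1a4 stood far above its group, Slco1a4 was called there (−0.16, adjusted p = 0.0221). On control ASO, 6 members were called, all lower in Htt Q111/+ mice, where 18.5% of all tested genes were called and 8.46% were called lower. These were Kdr (−0.50, adjusted p = 0.00647), Tek (−0.38, adjusted p = 0.011), Slco1a4 (−0.31, adjusted p = 5.91e-05), Flt1 (−0.29, adjusted p = 0.0129), Pecam1 (−0.28, adjusted p = 0.0113) and Tie1 (−0.25, adjusted p = 0.0377), on the log2 scale. Without Htt +/+ control ASO mouse 2, where 15.1% of all tested genes were called, 3 of these were called, Kdr at −0.35, Slco1a4 at −0.27 and Pecam1 at −0.15. Tek (adjusted p = 0.0614), Flt1 (adjusted p = 0.0779) and Tie1 (adjusted p = 0.157) were not. Without lane 7 it was 3 as well, with Tek (adjusted p = 0.0853), Flt1 (adjusted p = 0.0504) and Tie1 (adjusted p = 0.107) lost. With lane as a covariate Flt1 was lost (adjusted p = 0.0516). Tie1 was also lost on library totals (adjusted p = 0.0516), with quality weights (adjusted p = 0.0625) and in 7 of 35 fits that left out 1 mouse. Cdh5 (−0.22, adjusted p = 0.0596) was called in 4 of 11 alternatives. On Htt ASO, Slco1a4 alone was called (−0.29, adjusted p = 5.58e-05), where 21.2% of all tested genes were called and 10.2% were called lower. Slc2a1 had −0.16 (adjusted p = 0.0714), and was called without mouse 2 (adjusted p = 0.0496). The interaction of genotype with treatment was called for 0 members and 0 genes (0% of those tested) by limma, edgeR and DESeq2, and 948 genes (5.37%) had an unadjusted p under 0.05 by limma. Among the members that was Slco1a4 (unadjusted p = 0.0155, adjusted p = 0.878), so no difference of the genotype effect between treatments was shown.

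Other vascular transcripts were read from 8 lists with 110 genes outside the members, of which 107 were tested. For genotype, 44 were called lower in Htt Q111/+ mice and 4 higher, and the median log2 fold change was −0.11. Over all tested genes 39.8% were called and 18% were called lower, and the counts of each list are to be read against these shares. Of 24 other endothelial identity genes, 11 were lower and 0 higher (median −0.14), led by the adhesion receptor gene Adgrf5 (−0.19, adjusted p = 1.52e-07), the sphingosine phosphate receptor S1pr1 (−0.12, adjusted p = 0.00013) and the receptor phosphatase Ptprb (−0.36, adjusted p = 0.00054). Without Htt +/+ control ASO mouse 2, 9 of the 24 were lower and 0 higher (median −0.11), where 38.6% of all tested genes were called. Of 18 barrier transporters, 9 were lower and 1 higher (median −0.09), among them the taurine transporter Slc6a6 (−0.27, adjusted p = 8.02e-11), the drug efflux pump Abcb1a (−0.20, adjusted p = 4.15e-06) and the thyroid hormone and anion carrier Slco1c1 (−0.18, adjusted p = 0.000102). Of 12 genes of the Wnt pathway of the barrier, 6 were lower and 0 higher, including the coreceptor Adgra2 (−0.24), the ligand Wnt7a (−0.26) and Tspan12 (−0.12).

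In the list of VEGF and angiopoietin signalling, 3 of 15 tested genes were lower and 1 higher, a share of lower genes near the 18% of all tested genes and no result about the list. The lower ones were the coreceptor Nrp1 (−0.34, adjusted p = 4.01e-07), the ligand Vegfa (−0.20, adjusted p = 0.00192) and the peptide Apln (−0.15, adjusted p = 0.00879). Of 12 junction genes, 3 were lower and 1 higher, where Tjp1 (−0.11) and Ocln (−0.16) fell and Ctnnb1, which is made by most cells, rose (0.07, adjusted p = 1.94e-07). Endothelial activation gave 3 lower of 6 tested, Cx3cl1 (−0.27), which neurons also make, Plvap (−0.32) and Vcam1 (−0.15). Basement membrane genes gave 4 lower and 1 higher of 10, with Lama4 (−0.19) and Lamc1 (−0.08) lower and Lamb1 higher (0.19, adjusted p = 1.69e-07). Of 10 pericyte and smooth muscle genes, 5 were lower and 0 higher, among them Tagln (−0.49, adjusted p = 5.73e-10), Rgs5 (−0.24) and Abcc9 (−0.25).

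**Figure D2:**
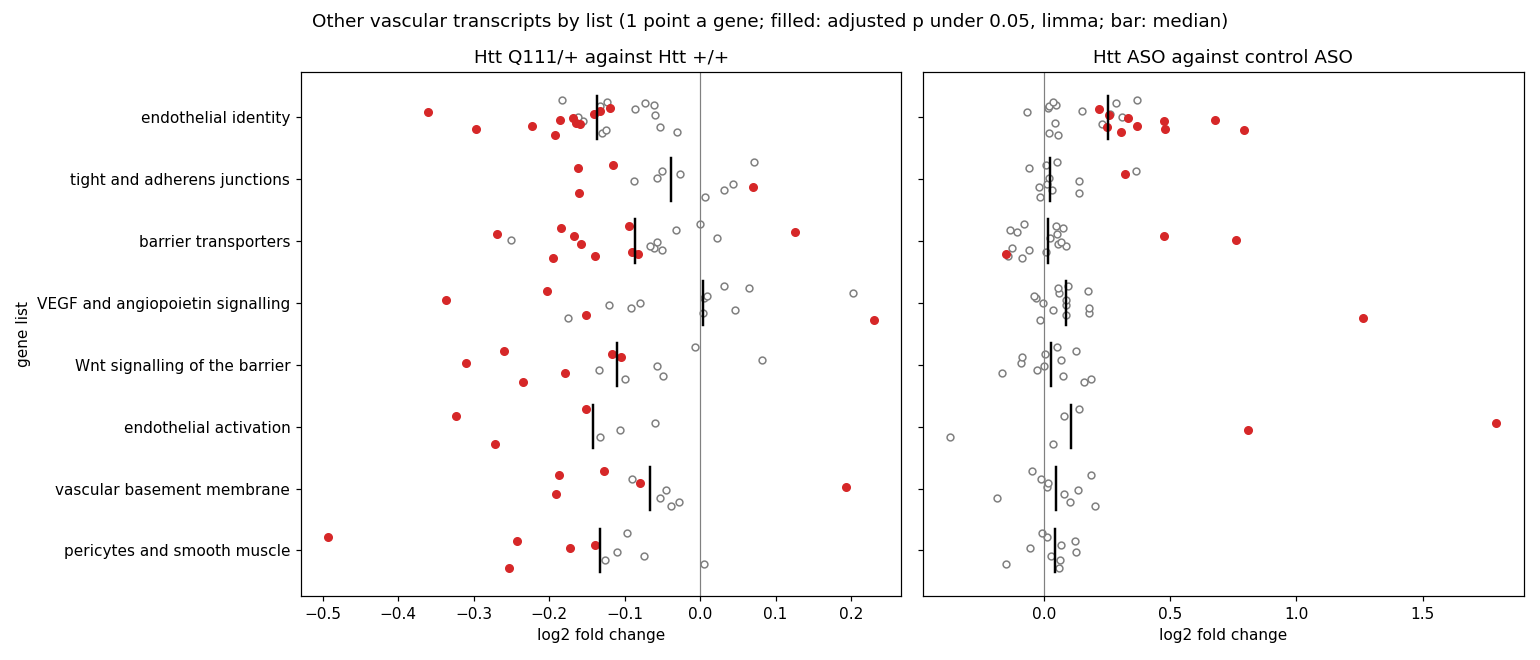
Fitted log2 fold change (horizontal axis) of the tested genes of 8 vascular lists, 1 point a gene, for Htt Q111/+ against Htt +/+ and for Htt ASO against control ASO; filled points passed an adjusted p of 0.05 and bars are medians. Endothelial identity genes lie to the left by genotype (median −0.14, 11 of 24 called lower, and 9 of 24 without Htt +/+ control ASO mouse 2) and to the right by Htt ASO (median 0.25, 10 of 24 called higher). Over all tested genes 18% were called lower by genotype and 0.828% higher by Htt ASO. Without that mouse 38.6% of all tested genes were called by genotype, in either direction.

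Markers of other cells were read against the same shares for genotype, with 39.8% of all tested genes called and 18% called lower. Of 6 projection neuron markers, 5 were lower in Htt Q111/+ mice and 1 higher (median −0.50), with summed levels of 3615 to 4398 CPM against 5680 to 6640 CPM in Htt +/+ mice. Microglia had 3 of 5 markers lower (242 to 288 CPM against 268 to 314 CPM summed), astrocytes 2 of 5 (807 to 907 CPM against 833 to 948 CPM) and oligodendrocytes 2 of 5 (8426 to 10280 CPM against 8821 to 11810 CPM), with 0 higher in each. The counts of astrocytes and oligodendrocytes are at the share called in either direction and above the 18% called lower. With 5 markers a list, no result is read from them. Red-cell markers had 0 of 3 called, with 18.6 to 170 CPM summed in Htt Q111/+ and 43.5 to 426 CPM in Htt +/+ mice. The part of these cells in the vascular difference was not tested.

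The question of treatment was whether an ASO given outside the brain went with a change in vascular transcripts inside it. In all, 2 members were called between Htt ASO and control ASO, both receptors of the angiopoietin system, in opposite directions: Tek was lower and Tie1 was higher on Htt ASO. In this comparison 0.935% of all tested genes were called, 0.828% higher and 0.108% lower on Htt ASO, and the median log2 fold change was 0.14 over the 10 members and 0.00 over all tested genes. Esam1 was higher as well, whereas Cdh5 and Cldn5, whose fitted values were also above 0, missed the threshold.

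For Tek, Htt +/+ mice had 14.2 to 17.7 CPM on saline (median 15.5), 13.4, 14.1, 14.4, 19.4 and 24.5 CPM on control ASO, and 9.19 to 12.5 CPM on Htt ASO (median 10.2). Htt Q111/+ mice had 12.5 to 16.0 CPM on saline (median 13.9), 11.7 to 14.9 CPM on control ASO (median 12.6) and 7.996 to 10.6 CPM on Htt ASO (median 9.38). Within each genotype the mice on Htt ASO thus lay below every other mouse. Over both, Tek was below every control ASO mouse in 11 of 12 mice on Htt ASO and its log2 fold change was −0.57 (SE 0.08, 95% confidence interval −0.73 to −0.41, adjusted p = 1.65e-05), which is 0.674 of the level on control ASO. By p it was the first of all genes called lower. Within lanes the difference was below 0 in 6 of 6 lanes, from −0.86 to −0.19.

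For Tie1, Htt +/+ mice had 11.3 to 13.2 CPM on saline (median 12.7), 12.2, 12.4, 14.98, 16.1 and 17.8 CPM on control ASO, and 14.9 to 20.1 CPM on Htt ASO (median 16.2). Htt Q111/+ mice had 10.46 to 12.9 CPM on saline (median 11.6), 11.8 to 13.3 CPM on control ASO (median 12.0) and 14.5 to 18.3 CPM on Htt ASO (median 16.1). The groups on Htt ASO and control ASO overlapped in Htt +/+ mice and did not in Htt Q111/+ mice. Over both, Tie1 rose by 0.31 on the log2 scale (SE 0.06, 95% confidence interval 0.19 to 0.42, adjusted p = 0.00148), 1.24-fold, and within lanes it was higher in 6 of 6, by 0.16 to 0.53.

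Since the members were seen to part here, the ratio of Tie1 to Tek was taken in each mouse as a description chosen after the values were known. On the log2 scale it was −0.50 to 0.16 in the 23 mice without Htt ASO and 0.51 to 0.99 in the 12 mice on it. All 12 stood above every other mouse, and Htt +/+ control ASO mouse 2, high in both transcripts, had −0.46, the lowest of the mice on control ASO.

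**Figure D3:**
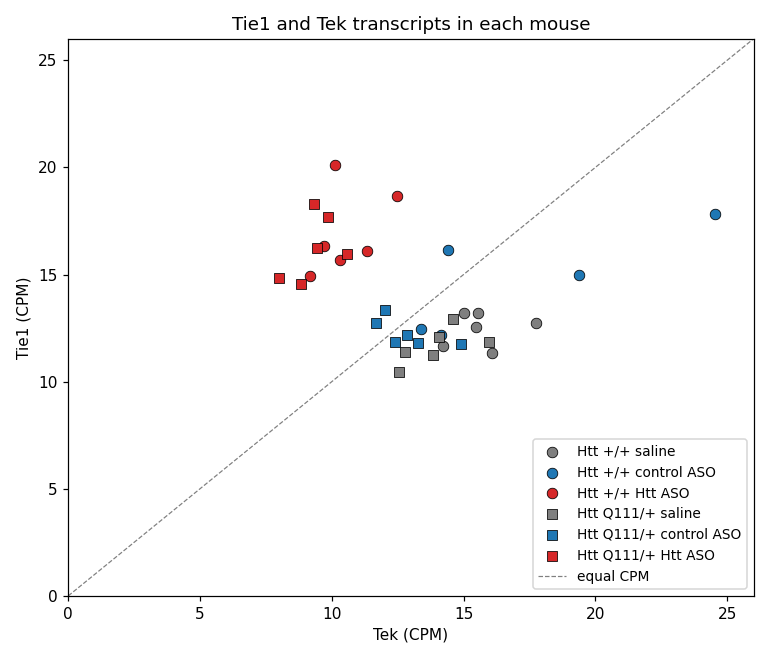
Tie1 (vertical axis, CPM) against Tek (horizontal axis, CPM) in each of 35 mice, with circles for Htt +/+, squares for Htt Q111/+ and the dashed line at equal CPM. The 12 mice on Htt ASO (red) lie upwards and to the left of the rest, with log2 ratios of 0.51 to 0.99 against −0.50 to 0.16.

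Of the junction molecules, Cdh5 had 14.1 to 23.9 CPM on control ASO (median 16.1, n = 11) and 16.3 to 22.5 CPM on Htt ASO (median 18.6, n = 12). The groups overlapped, and mouse 2 was the only mouse on control ASO above 16.9 CPM. With it, the log2 fold change was 0.21 (SE 0.05) and missed the threshold (adjusted p = 0.054), and without it Cdh5 rose by 0.26 (SE 0.04, adjusted p = 0.000362). With all mice kept, Cdh5 was called by DESeq2 (adjusted p = 0.0421), on library totals (adjusted p = 0.0336) and with GC correction (adjusted p = 0.0448), and it was called in 9 of 35 fits that left out 1 mouse, mouse 2 included. Pecam1 had 20.7 to 40.0 CPM on control ASO and 25.5 to 31.9 CPM on Htt ASO, with a log2 fold change of 0.18 (adjusted p = 0.156) that was 0.25 without mouse 2 (adjusted p = 2.63e-05). Cldn5 had 13.1 to 31.8 CPM on control ASO (median 17.0) and 19.3 to 30.2 CPM on Htt ASO (median 22.3), and its log2 fold change of 0.41 (SE 0.11, adjusted p = 0.0638) was 0.50 without mouse 2 (adjusted p = 0.0025) and was called by DESeq2 with all mice (adjusted p = 0.0409). Within lanes Cldn5 differed by −0.05 to 1.08, above 0 in 5 of 6. Esam1 rose by 0.22 (SE 0.05, adjusted p = 0.0113) and by 0.26 without mouse 2 (adjusted p = 0.000454), and in 6 of 6 lanes. The row Esam gave 0.47 (SE 0.53, adjusted p = 0.967).

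The VEGF receptors and the transporters did not pass the test between the ASOs. The log2 fold change was 0.11 for Kdr (95% confidence interval −0.07 to 0.29), −0.06 for Flt1 (−0.18 to 0.05), −0.04 for Slc2a1 (−0.14 to 0.05) and −0.05 for Slco1a4 (−0.13 to 0.02), each with a limma adjusted p of 0.954 or above. Without mouse 2, 5 members in place of 2 were called between the ASOs, Tie1, Cdh5, Pecam1 and Cldn5 as higher and Tek as lower. In that fit 1.15% of all tested genes were called, against 0.935% with all mice.

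Within Htt Q111/+ mice, Tie1 was the member called between the ASOs (0.40, SE 0.08, adjusted p = 0.00727), where 0.357% of all tested genes were, and Tek had −0.46 (SE 0.11, adjusted p = 0.0614). Within Htt +/+ mice it was Tek (−0.67, SE 0.11, adjusted p = 0.000585), where 0.295% of all tested genes were called, and Tie1 had 0.21 (SE 0.08, adjusted p = 0.765). The call of Tie1 in Htt Q111/+ mice was lost without lane 7 (0.38, adjusted p = 0.19), and edgeR (adjusted p = 0.0407) and DESeq2 (adjusted p = 0.00666) called Tek there as well. Without mouse 2, Tek was called in both (−0.46, adjusted p = 0.00402, and −0.54, adjusted p = 0.00114), together with Tie1, Pecam1 and Cdh5 in Htt Q111/+ and Pecam1 in Htt +/+ mice. In that fit 0.508% of all tested genes were called in Htt Q111/+ and 0.412% in Htt +/+ mice. Mouse 2 is not among the Htt Q111/+ mice. Its removal left the fold change of Tek there at −0.46 and lowered the shared estimate of the spread (SE 0.11 with it, 0.09 without). The interaction was not called for Tek (adjusted p = 0.878) or Tie1 (adjusted p = 0.878).

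Against saline, the same 12 mice on Htt ASO served again, so this comparison is not independent of the last. In it 4 members were called, Tie1 (0.46, SE 0.06, adjusted p = 1.45e-06), Cdh5 (0.35, SE 0.05, adjusted p = 8e-05) and Pecam1 (0.20, SE 0.05, adjusted p = 0.0451) as higher and Tek (−0.58, SE 0.08, adjusted p = 4.56e-06) as lower, where 1.47% of all tested genes were called, 1.2% higher and 0.278% lower. For 2 members the groups did not overlap, where 0.249% of all tested genes did: every mouse on Htt ASO was above every mouse on saline for Tie1 (14.5 to 20.1 against 10.46 to 13.2 CPM) and below every one for Tek (7.996 to 12.5 against 12.5 to 17.7 CPM, where the nearest mice had 12.46 and 12.54 CPM). Between Htt ASO and control ASO no member did, where 0.142% of all tested genes did. The call of Pecam1 was lost in 5 of 11 alternatives (adjusted p up to 0.244, without lane 7) and in 22 of 35 fits that left out 1 mouse (adjusted p up to 0.0974). Htt +/+ control ASO mouse 2 is in neither group and adds only to the estimate of the spread. Without it, Pecam1 kept a log2 fold change of 0.20, with an adjusted p of 0.000166 by limma. Esam1 rose by 0.22 (SE 0.05, adjusted p = 0.00571), a call that was lost without lane 7 (0.19, adjusted p = 0.0672). Cldn5 had 0.32 (SE 0.10, adjusted p = 0.167), Kdr 0.19 (SE 0.09, adjusted p = 0.507), Slco1a4 0.09 (SE 0.04, adjusted p = 0.356), Slc2a1 −0.08 (SE 0.05, adjusted p = 0.593), Flt1 −0.05 (SE 0.06, adjusted p = 0.855) and Esam 0.03 (SE 0.48, adjusted p = 0.992). Within lanes the difference from saline was above 0 in 5 of 5 for Tie1 (0.45 to 0.56), Cdh5 (0.28 to 0.48) and Pecam1 (0.09 to 0.35), and below 0 in 5 of 5 for Tek (−0.81 to −0.42).

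Between control ASO and saline, 0 members and 0 genes were called (0% of those tested) by limma, edgeR and DESeq2. At an unadjusted p under 0.05 limma gave 1357 genes, 7.69% of those tested, and 3 members, with Slco1a4 at 0.14 (SE 0.04, adjusted p = 0.588), Tie1 at 0.15 (SE 0.06, adjusted p = 0.599) and Cdh5 at 0.14 (SE 0.06, adjusted p = 0.599) on the log2 scale. By p, Slco1a4 was number 4 of all tested genes in this comparison.

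**Figure D4:**
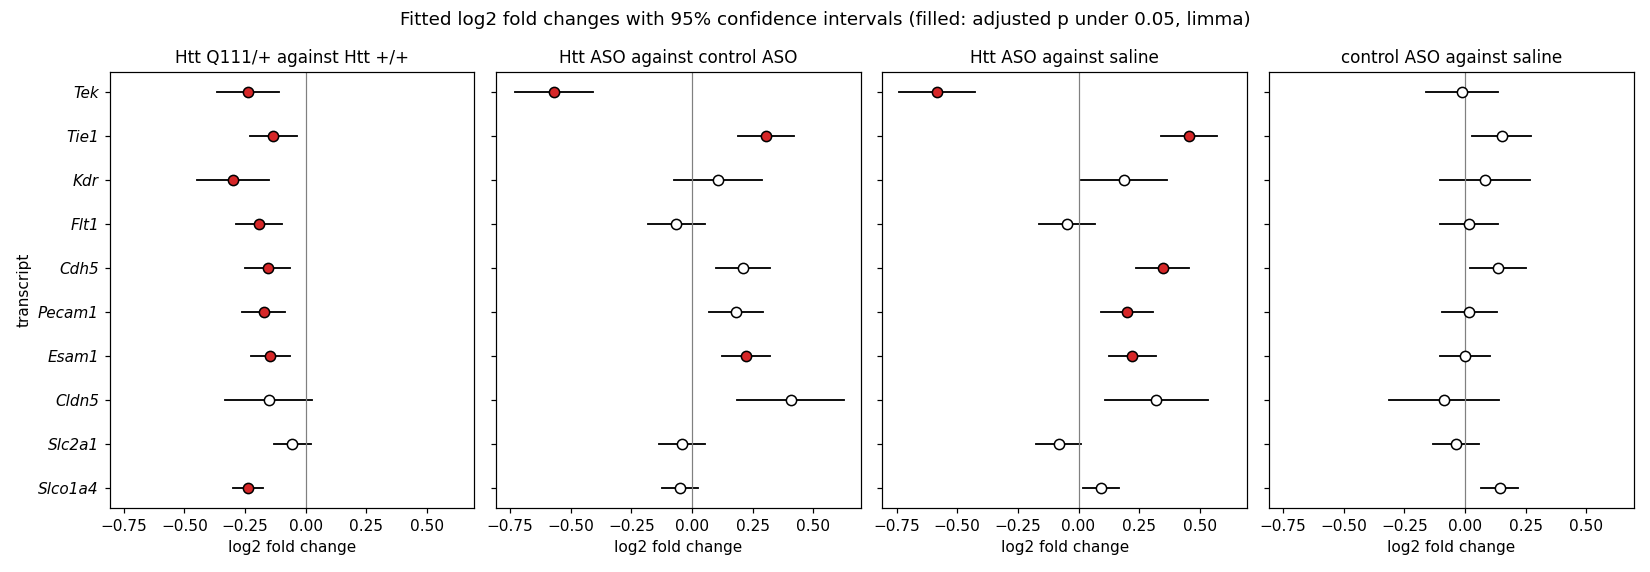
Fitted log2 fold change (horizontal axis, point) with its 95% confidence interval (line) for 9 of the 10 genes and Esam1 in 4 comparisons averaged over the other factor; filled points passed an adjusted p of 0.05 and the sparse row Esam is left out. By genotype the points lie below 0 (−0.30 to −0.06), and on Htt ASO Tek (−0.57 and −0.58) and Tie1 (0.31 and 0.46) lie on opposite sides of 0.

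Among the 107 tested genes of the vascular lists, 16 were higher and 1 lower on Htt ASO than on control ASO, and 10 of the 16 were among the 24 endothelial identity genes (0 lower, median 0.25). Over all tested genes 0.828% were called higher and 0.108% lower, and the counts here and below are to be read against these shares. The lists were chosen with earlier results of these data known. Of the 10 endothelial identity genes called higher, the most changed were Cd93 and Ly6a. Cd93, a lectin-like receptor, had 7.09 to 11.6 CPM on saline, 8.25 to 21.6 CPM on control ASO and 15.5 to 22.5 CPM on Htt ASO. Its log2 fold change between the ASOs was 0.79 (adjusted p = 2.14e-06). Ly6a, an interferon-inducible surface protein also called Sca-1, had 21.3 to 29.5, 23.5 to 54.2 and 38.9 to 51.0 CPM (0.68, adjusted p = 2.23e-07). The other 8 were Clec14a (0.48), Icam2 (0.47), Emcn (0.37), Ly6c1 (0.33), Cd34 (0.30), Nos3 (0.26), Egfl7 (0.25) and Robo4 (0.22), which are surface or secreted proteins of endothelium except Nos3, the endothelial nitric oxide synthase, and their adjusted p ran from 0.000401 to 0.0255. Without mouse 2, 14 of the 24 were called higher and 0 lower (median 0.29), where 1.15% of all tested genes were called.

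Beyond these, Angpt2, the angiopoietin that competes with Angpt1 for the receptor Tek, rose from 0.99 to 3.27 CPM on control ASO to 2.81 to 6.04 CPM on Htt ASO (log2 fold change 1.26, SE 0.17, adjusted p = 7.95e-06), and was the only gene called of the 15 tested for VEGF and angiopoietin signalling. Of the barrier transporters, the iron exporter Slc40a1 (0.48, adjusted p = 1.01e-07) and the amino acid carrier Slc38a5 (0.76, adjusted p = 0.00341) rose. The drug efflux pump Abcg2 fell by 0.15 (adjusted p = 0.0192), but for Htt ASO against saline it had −0.08 and was not called (limma adjusted p = 0.41). Of the activation genes, Icam1 (0.81, adjusted p = 6.86e-06) and Lcn2 (1.79, SE 0.42, adjusted p = 0.0204) rose. Lcn2 was sparse, with a mean of 0.56 CPM over all mice. Lsr, of the junctions where 3 cells meet, rose by 0.32 (adjusted p = 0.0271). None of the Wnt, basement membrane or pericyte and smooth muscle genes was called between the ASOs (0 of 12, 0 of 10 and 0 of 10, with 5, 4 and 1 at an unadjusted p under 0.05 by limma).

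Other markers gave a measured setting for the treatment difference. Of 9 interferon response genes, 8 were higher and 0 lower on Htt ASO than on control ASO (median 0.99), where 0.828% of all tested genes were called higher. Their summed level was 60.8 to 108 CPM on Htt ASO, 39.9 to 59.9 CPM on control ASO and 42.4 to 67.2 CPM on saline. None of the markers of microglia, astrocytes, oligodendrocytes, projection neurons, fibroblasts and meninges, cortical excitatory neurons, choroid plexus or red cells was called in this comparison. Red-cell transcripts summed to 78.2 to 261 CPM on Htt ASO, 18.6 to 426 CPM on control ASO and 43.5 to 170 CPM on saline, and choroid plexus transcripts to 42.1 to 146, 43.6 to 1573 and 52.2 to 107 CPM, where the mouse at 1573 CPM was Htt +/+ control ASO mouse 1. The part of interferon signalling, blood and choroid plexus in the members' levels was not tested.

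**Figure D5:**
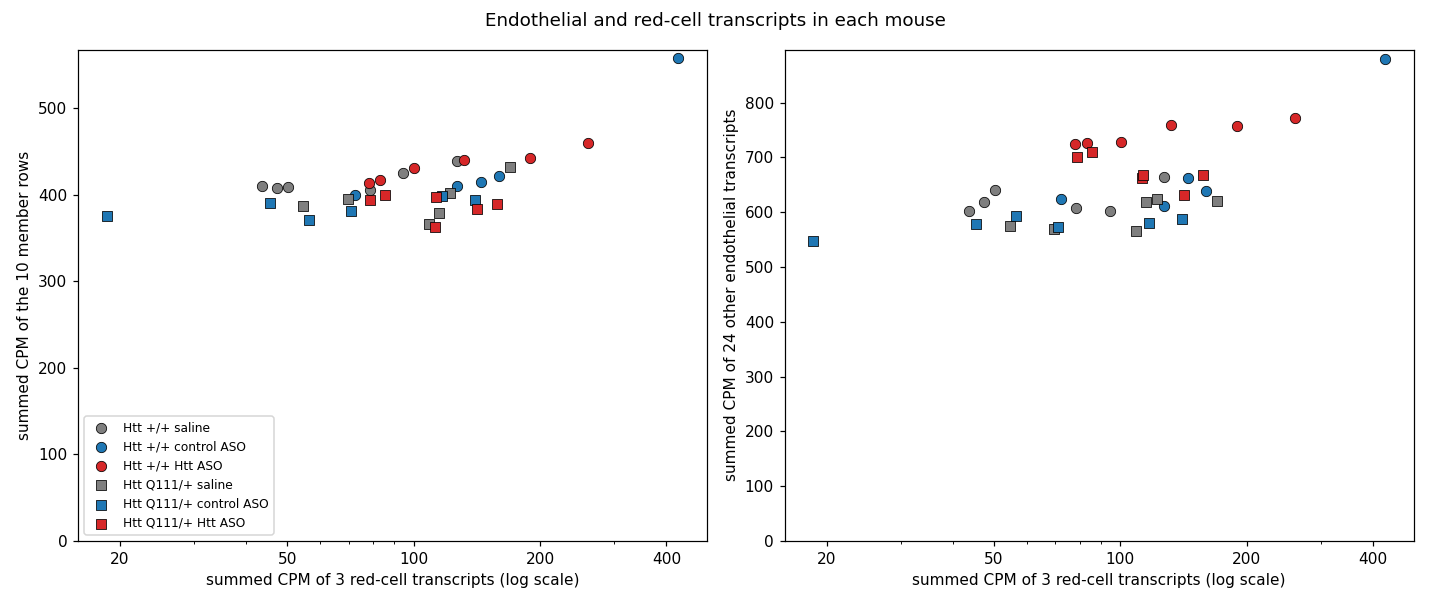
Summed CPM of the 10 members (left) and of 24 other endothelial transcripts (right) against the summed CPM of 3 red-cell transcripts (horizontal axis, log scale) in each mouse. Htt +/+ control ASO mouse 2 stands at the upper right (426 CPM of red-cell transcripts, 558 CPM of the members and 880 CPM of the 24), and the 12 mice on Htt ASO lie at 631 to 772 CPM of the 24, against 548 to 664 CPM in the other 22.

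After the group means were taken out, the members varied together from mouse to mouse. Over the 36 pairs of the 9 members other than Esam, Pearson's r across 35 mice ranged from −0.192 to 0.776 (median 0.462), with 33 pairs above 0. Without mouse 2 it ranged from −0.515 to 0.616 (median 0.303), with 27 pairs above 0. Cdh5 and Pecam1 followed the mean of the other members most closely (r = 0.825 for each, 0.706 and 0.615 without mouse 2). Apart from Esam, Slc2a1 (0.149, −0.208 without mouse 2), Slco1a4 (0.333 and 0.126) and Tie1 (0.419 and 0.202) followed it least. These are descriptions, since mice share lanes and the values of 1 library share its scaling.

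The tested genes most like the mean of the members by the same measure were Vwf, the clotting factor stored by endothelium (r = 0.874, 0.688 without mouse 2), the basement membrane collagen Col4a1 (0.82 and 0.672), the TGF-beta coreceptor Eng (0.804 and 0.698), Bsg (0.791 and 0.585), Igfbp7 (0.786 and 0.521), the vasodilator peptide Adm (0.782 and 0.628), Ly6a (0.748 and 0.385), the Wnt effector Lef1 (0.744 and 0.685), the lactate carrier Slc16a1 (0.722 and 0.535) and Ly6c1 (0.713 and 0.395). All but Bsg, Igfbp7 and Adm were on the vascular lists. Over all tested genes outside the members the median r was 0.0064, and 1.48% had an r over 0.5.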

How the data were processed

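RNA of 35 hemistriata was sequenced as paired reads. Per the submitters' processing notes and the study's methods, the authors aligned reads with Bowtie 0.12.9 and estimated gene levels with RSEM 1.1.18 on the mouse build MGSCv37, and deposited 1 table of expected counts (estimated counts that need not be whole; 55.6% were) for 22099 gene symbols. Totals were 32200158 to 38641924 a mouse (median 35538941), and the number of mice more than depth limits the precision.

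From these, genes were kept by filterByExpr (17639), scaled by TMM and fitted with limma 3.58.1 after voom in R 4.3.3, with 1 mean for each of 6 groups, two-sided tests and Benjamini-Hochberg adjustment at 0.05. CPM used edgeR 4.0.16 and log2 CPM a prior count of 2. Alternatives were DESeq2 1.42.0 or the quasi-likelihood test of edgeR on rounded counts, library totals, 2 other filters, lane (the number after L in sample names) as a covariate, without lane 7, without the left hemistriatum, quality weights, GC correction (83.5% of tested genes had a GC content) and each mouse left out. Summing Esam and Esam1 was chosen after seeing the data. Scripts were tested on simulated data. All 85 pairs of mice within groups differed by more than sampling noise (chi-square per degree of freedom 3.57 to 16.5). The labels name the active oligonucleotide by a code read here as the Htt ASO.

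Positions and lengths are from GENCODE on GRCm38 and promoters from RefSeq on GRCm38.p6 (7 of 10 members matched). The text names the 10 members, Htt, from each vascular list the genes with the 3 smallest adjusted p for genotype and those called between the ASOs, and the 10 most alike genes. Members and lists were chosen with earlier results of these data known. Tables and figures used Python 3.11.15, pandas 2.3.3, numpy 2.4.6 and matplotlib 3.10.9.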

Additional observations from a re-analysis of the deposited data

Results flagged for a closer look

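In 66 checks of a gene within a group, 5 found a mouse far from the rest of its group by Dixon's criterion, and chance alone flags some groups at its 95% level. Htt +/+ control ASO mouse 2 accounted for 3, with 40 CPM of Pecam1 (next 26.9 CPM), 118 CPM of Flt1 (next 81.2 CPM) and 23.9 CPM of Cdh5 (next 16.9 CPM). Its red-cell and pericyte transcripts were also the highest of all mice. The others were Htt +/+ Htt ASO mouse 3, with 31.9 CPM of Pecam1 (next 29.4 CPM), and Htt Q111/+ saline mouse 6, with 68.3 CPM of Slco1a4 (next 57.6 CPM).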

How the results depend on the processing

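Tek and Tie1 kept their direction and their call for Htt ASO against control ASO under 11 alternatives and with each of 35 mice left out, with log2 fold changes of −0.607 to −0.502 and 0.274 to 0.342 across mice left out. Counts of members called changed elsewhere. For genotype on control ASO, 3 members and 1902 genes were called without lane 7. For genotype on Htt ASO, 2 members were called by DESeq2, without lane 7 and with GC correction. Between the ASOs, DESeq2 called 4 members, and 105 genes were called without lane 7. Within Htt Q111/+ mice, 2 members were called by edgeR, by DESeq2 and with quality weights, and 0 without lane 7, with 98 genes by DESeq2 and 29 without lane 7.

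With each mouse left out, members called for genotype ranged from 0 to 1 on saline, 3 to 7 on control ASO and 1 to 2 on Htt ASO. All genes called there ranged from 2529 to 3105, 2507 to 3330 and 3125 to 3803. Between the ASOs members ranged from 2 to 5 and genes from 133 to 203. For Htt ASO against saline members ranged from 3 to 4 and genes from 229 to 273. Between the ASOs within Htt Q111/+ mice members ranged from 1 to 4 and genes from 46 to 90, and within Htt +/+ mice from 1 to 2 and from 34 to 73. The highest count came without Htt +/+ control ASO mouse 2 between the ASOs in both genotypes. Reversals were seen for the sparse row Esam, which was −0.13 for genotype with Esam1 added, and for Htt ASO against saline −0.058 with lane as a covariate, −0.059 without the left hemistriatum and −0.13 with quality weights. With mice left out, Esam ranged from −0.19 to 0.72 between the ASOs and from −0.10 to 0.17 against saline. Where no cause is given above, the cause was not tested. No paired analysis was possible because replicate numbers only follow accession order.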
